A study of Mus musculus with 8 samples.

Results

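Expression of 9 genes of the epithelial cell junctions was followed in mouse blastocysts that had been vitrified with melatonin, vitrified without it, or left fresh. The genes were listed by symbol, with earlier results of these data known, as 3 claudins (Cldn4, Cldn6, Cldn7), 3 other membrane proteins of the tight junction (Ocln, Marveld2, F11r), 2 proteins of its cytoplasmic plaque (Tjp1, Cgn) and E-cadherin (Cdh1). All 9 were found among the 19688 genes of the deposited table, and all 9 were among the 10755 genes tested. The series asked whether melatonin, an indoleamine hormone and antioxidant, helps blastocysts survive vitrification, in which embryos are cooled to a glass in concentrated cryoprotectant. The melatonin-vitrified group (3 libraries) was vitrified and thawed in media holding 1e-10 M melatonin, the vitrified group (3 libraries) in media without it, and the fresh group (2 libraries) was not vitrified. The strain, the age and the number of embryos behind a library were not given in the sources used here. Replicates are numbered as biosamples without saying whether these were separate animals or cultures, so p-values measure only the spread between these samples, which may be technical.

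In the blastocyst the outer trophectoderm is the first epithelium of the embryo. Its cells are joined near the outer surface by tight junctions, whose claudins form the paracellular seal, whose occludin-family and JAM proteins lie beside them in the membrane, and whose plaque proteins ZO-1 and cingulin tie them to actin. The seal lets the trophectoderm pump fluid into the blastocyst cavity and hold it, and E-cadherin adhesion, which begins at compaction, precedes it. Blastocysts shrink in cryoprotectant and re-expand after thawing, which depends on that seal.

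The values are FPKM, that is, fragments scaled to the length of the transcript and the depth of the library. The steps between low values put the depth at about 5821000 fragments in fresh replicate 2, the shallowest library, and 9972000 in fresh replicate 1, the deepest. The least covered of the 9 genes, Tjp1, then rested on about 81.2 to 156 fragments per library and Cldn4 on about 4425 to 17726. Defining markers of the trophectoderm (Krt8, Krt18, Cdx2, Gata3) were at 18.6 FPKM or more in every library. Has2, a marker of the cumulus cells that surround the oocyte, was at 0 in 7 of 8 libraries. Other genes of the cumulus cell list were found. Cyp11a1 averaged 2.20 FPKM in vitrified, 1.30 FPKM in melatonin-vitrified and 0.0293 FPKM in fresh libraries. For Nr5a2 the means were 2.20, 2.04 and 1.24 FPKM. Inha and Star averaged 0.0288 and 0.332 FPKM over the 8 libraries. In a whole blastocyst, fewer cells of a type and less RNA per cell cannot be told apart. Fold changes below are differences of mean log2(FPKM + 1), which understate the change of genes with low values, each with its SE from limma, and a gene was called when its Benjamini-Hochberg adjusted p over all tested genes was under 0.05. The median log2 fold change over all tested genes was 0.14 for vitrified over fresh, -0.05 for melatonin-vitrified over vitrified and 0.09 for melatonin-vitrified over fresh, and the value for vitrified over fresh was -0.01 when libraries were scaled by median ratios.

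Cldn4 (GENCODE on GRCm38, the mm10 build, chr5:134945119-134946934, minus strand) encodes claudin-4, a sealing claudin of the trophectoderm, and was the most abundant of the 9 genes in every library. It fell to 353, 354 and 494 FPKM in the vitrified libraries, against 979 and 876 FPKM in the fresh libraries. Melatonin-vitrified libraries held 713, 702 and 814 FPKM. The 3 groups did not overlap, with vitrified lowest, melatonin-vitrified between and fresh highest. For vitrified over fresh the log2 fold change was -1.23 ± 0.18 (limma, adjusted p = 0.0394), a ratio of mean FPKM of 0.432. It was the only one of the 9 genes called in that comparison, in which 0.865% of all tested genes were called, 82 higher and 11 lower. With median ratio scaling 3 genes were called higher and 4 lower, and with quantile normalization 0 higher and 3 lower, and Cldn4 missed the threshold under both (limma, adjusted p = 0.0556 and 0.0634).

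The call sat close to its threshold. In fits without vitrified replicate 1, 2 or 3 the adjusted p of limma was 0.0770, 0.0658 and 0.0628, without fresh replicate 1 it was 0.0884, and without melatonin-vitrified replicate 3, which enters only through the shared spread, it was 0.0752. The log2 fold change stayed between -1.43 and -0.998 over all 18 alternatives, while the adjusted p of limma ranged over 0.0227 to 0.136. For melatonin-vitrified over vitrified, Cldn4 had a log2 fold change of 0.91 ± 0.16 (95% interval 0.55 to 1.26) that did not pass the test (limma, adjusted p = 0.0802, range over the alternatives 0.0530 to 0.385). For melatonin-vitrified over fresh the value was -0.32 ± 0.18 (95% interval -0.72 to 0.08, limma adjusted p = 0.363). Of all tested genes, 0.139% were called for melatonin-vitrified over vitrified (3 higher and 12 lower) and 0% for melatonin-vitrified over fresh, and 0 of the 9 genes were called in either. The 0 calls of melatonin-vitrified over fresh stand beside 1985 genes, 4 of the 9 among them, with an unadjusted limma p under 0.05. With a pseudocount of 0.1 in place of 1, 5 genes were called there.

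**Figure D1:**
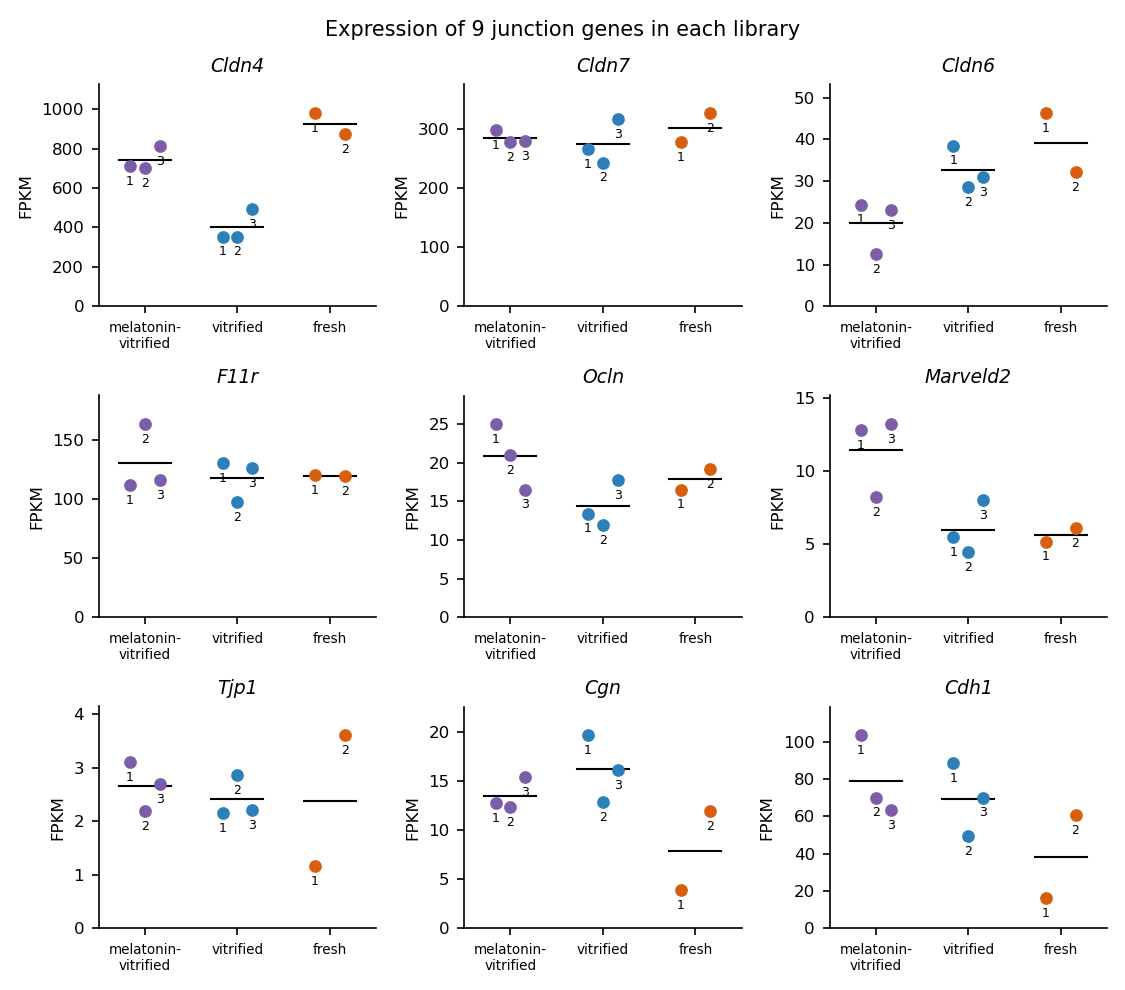
FPKM of the 9 junction genes (1 panel each, axis from 0) in the melatonin-vitrified, vitrified and fresh libraries; each point is 1 library with its replicate number and the line is the group mean. The Cldn4 points of the 3 groups do not overlap, while fresh replicate 1 lies far below fresh replicate 2 for Tjp1, Cgn and Cdh1.

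Cldn7 (chr11:69964779-69967885, plus strand) encodes claudin-7, which is also found along the lateral membranes of epithelia. It held 298, 278 and 279 FPKM in melatonin-vitrified libraries, 265, 243 and 316 FPKM in vitrified libraries and 277 and 326 FPKM in fresh libraries. The groups overlapped throughout. The log2 fold change of vitrified over fresh was -0.14 ± 0.16 with a 95% interval of -0.49 to 0.21 (limma, adjusted p = 0.656), and that of melatonin-vitrified over vitrified was 0.06 ± 0.14 with a 95% interval of -0.25 to 0.37 (limma, adjusted p = 0.870). These intervals leave out changes of the size that Cldn4 had.

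The ratio of Cldn4 to Cldn7, which needs no scaling between libraries, was added after the values of both genes were seen. Cldn4 stood at 2.39, 2.53 and 2.92 times Cldn7 in melatonin-vitrified libraries, at 1.33, 1.46 and 1.56 times in vitrified libraries and at 3.53 and 2.69 times in fresh libraries. The vitrified ratios lay below all others. On the log2 scale the ratio differed by -1.09 between vitrified and fresh (two-sided exact permutation p = 0.1) and by 0.85 between melatonin-vitrified and vitrified (exact permutation p = 0.1), in both cases the smallest p these group sizes allow. Between melatonin-vitrified and fresh it differed by -0.24 (exact permutation p = 0.3).

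The start regions of both genes are given because these are the most abundant claudins. Each run covers 250 bases before to 50 bases after the annotated start, read from RefSeq on GRCm38.p6 in the direction of the gene. Capitals mark matches on either strand to 5 short motifs, chosen after the values were known: GCCNNNGGC for TFAP2 factors, AACCNGTT for Grainyhead-like factors, GGAATG for TEAD factors, GGGCGG for KLF and SP factors, and TATAAA for the TATA box.
Cldn4, chr5:134946885-134947184, minus strand: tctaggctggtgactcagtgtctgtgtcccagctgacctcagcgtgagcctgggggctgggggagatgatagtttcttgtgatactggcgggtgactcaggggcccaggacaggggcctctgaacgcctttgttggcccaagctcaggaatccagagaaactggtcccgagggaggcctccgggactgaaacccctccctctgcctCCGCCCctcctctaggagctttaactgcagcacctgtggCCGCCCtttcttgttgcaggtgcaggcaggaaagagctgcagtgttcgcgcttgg
Cldn7, chr11:69964529-69964828, plus strand, the first of 2 annotated starts: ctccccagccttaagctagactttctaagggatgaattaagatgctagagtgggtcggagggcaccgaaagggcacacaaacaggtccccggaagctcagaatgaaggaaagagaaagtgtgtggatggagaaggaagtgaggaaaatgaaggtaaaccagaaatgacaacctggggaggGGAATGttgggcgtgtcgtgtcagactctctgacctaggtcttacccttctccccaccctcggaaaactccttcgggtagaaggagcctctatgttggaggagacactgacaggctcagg

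The Cldn4 window held 2 matches to the KLF and SP letters, at bases -44 and -5 counted from the start, and no match to the other motifs. The Cldn7 window held 1 match to the TEAD letters at base -70, and the window of its second start held 1 match to the KLF and SP letters. Of 32851 promoter windows of this length in the table, 35.7% held the KLF and SP letters, 14.7% the TEAD letters, 16.6% the TFAP2 letters, 13.6% the TATA letters and 2.09% the Grainyhead-like letters. Windows were given for 8 of the 9 genes, with Cdh1 left out of the search. Each of the 8 had a KLF and SP match in at least 1 window, with 6 in that of Cgn, beside 38.2% of all 27025 genes with a window. The 27025 genes were not matched to these 8 for GC content or expression, and enrichment was not tested. TFAP2 letters were found for F11r, Tjp1, Ocln and Marveld2, TEAD letters for Cldn7 and Cldn6, and Grainyhead-like letters for Cgn alone of the 8. TATA letters were found for Marveld2 alone of the 8, far from the start, at base -223 in 1 window and -250 in another. A match is a run of letters and not a bound site.

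Claudins are a family of close relatives, so it matters whether fragments of one could be counted for another. The stretches of 60 coding bases in which Cldn4 is most like Cldn3, Cldn6 and Cldn7 follow, with capitals at the bases that differ within each pair.
Cldn4, against Cldn3: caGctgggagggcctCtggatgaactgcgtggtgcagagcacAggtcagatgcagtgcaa
Cldn3: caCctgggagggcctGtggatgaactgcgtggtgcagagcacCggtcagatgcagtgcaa
Cldn4, against Cldn6: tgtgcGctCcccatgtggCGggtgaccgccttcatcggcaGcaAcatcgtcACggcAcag
Cldn6: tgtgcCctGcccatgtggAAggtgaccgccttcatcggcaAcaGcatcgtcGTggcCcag
Cldn4, against Cldn7: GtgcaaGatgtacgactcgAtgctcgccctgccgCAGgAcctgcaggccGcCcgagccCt
Cldn7: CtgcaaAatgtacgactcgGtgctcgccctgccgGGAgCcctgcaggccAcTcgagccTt
In these stretches Cldn4 matched Cldn3 at 57 of 60 bases, Cldn6 at 51 and Cldn7 at 50. Over the whole coding sequences, and so also outside these stretches, the longest run shared without a difference was 35 bases with Cldn3, 20 with Cldn6 and 14 with Cldn7, against reads of 150 bases from both fragment ends per the labels. No run of 50 bases in the annotated transcripts of Cldn4, Cldn6 or Cldn7 recurred in a transcript of a gene outside the 9. The same held for Tjp1, Ocln, Cdh1 and Marveld2. For F11r 1.70% of such runs and for Cgn 17.9% recurred in genes outside the 9, so Cgn values are the less certain. The 9 genes were not searched against each other for runs of 50 bases. Among them only the coding sequence of Cldn4 was compared, with those of Cldn6 and Cldn7 as above.

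Cldn6 (chr17:23679249-23682446, plus strand) encodes claudin-6, known from early embryonic epithelia and pluripotent cells. It held 24.3, 12.5 and 23.1 FPKM in melatonin-vitrified libraries, 38.5, 28.6 and 30.9 FPKM in vitrified libraries and 46.2 and 32.2 FPKM in fresh libraries. Melatonin-vitrified libraries lay below all others, and vitrified and fresh libraries overlapped. No comparison passed the test. Its log2 fold changes were -0.72 ± 0.26 for melatonin-vitrified over vitrified (limma, adjusted p = 0.256), -0.97 ± 0.29 for melatonin-vitrified over fresh (limma, adjusted p = 0.162) and -0.25 ± 0.29 for vitrified over fresh (limma, adjusted p = 0.671). Cldn9 lies 138 bases from Cldn6 on the opposite strand and stayed at or below 0.719 FPKM in all 8 libraries.

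Over the whole family the table held 20 claudin genes, of which 4 averaged at least 1 FPKM over the 8 libraries: Cldn4, Cldn7, Cldn3 and Cldn6. The summed claudin FPKM was 1129, 1122 and 1180 in melatonin-vitrified libraries, 715, 712 and 951 in vitrified libraries and 1432 and 1302 in fresh libraries. Cldn4 made up 64.9% ± 3.56 of that sum in melatonin-vitrified libraries (SD, n = 3), 50.3% ± 1.41 in vitrified libraries (SD, n = 3) and 67.8% ± 0.782 in fresh libraries (SD, n = 2). Cldn7 made up 24.9% ± 1.39 in melatonin-vitrified libraries, 34.8% ± 2.02 in vitrified libraries and 22.2% ± 3.99 in fresh libraries. The vitrified libraries lay apart from the others for both shares, which are parts of 1 sum and so not independent. Cldn3, which lies 39280 bases from Cldn4 on chromosome 5 on the opposite strand, held 93.6, 125 and 60.9 FPKM in melatonin-vitrified libraries, 56.3, 85.1 and 103.6 FPKM in vitrified libraries and 125 and 66.1 FPKM in fresh libraries, and its groups overlapped (limma, vitrified over fresh -0.19 ± 0.36, adjusted p = 0.805).

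**Figure D2:**
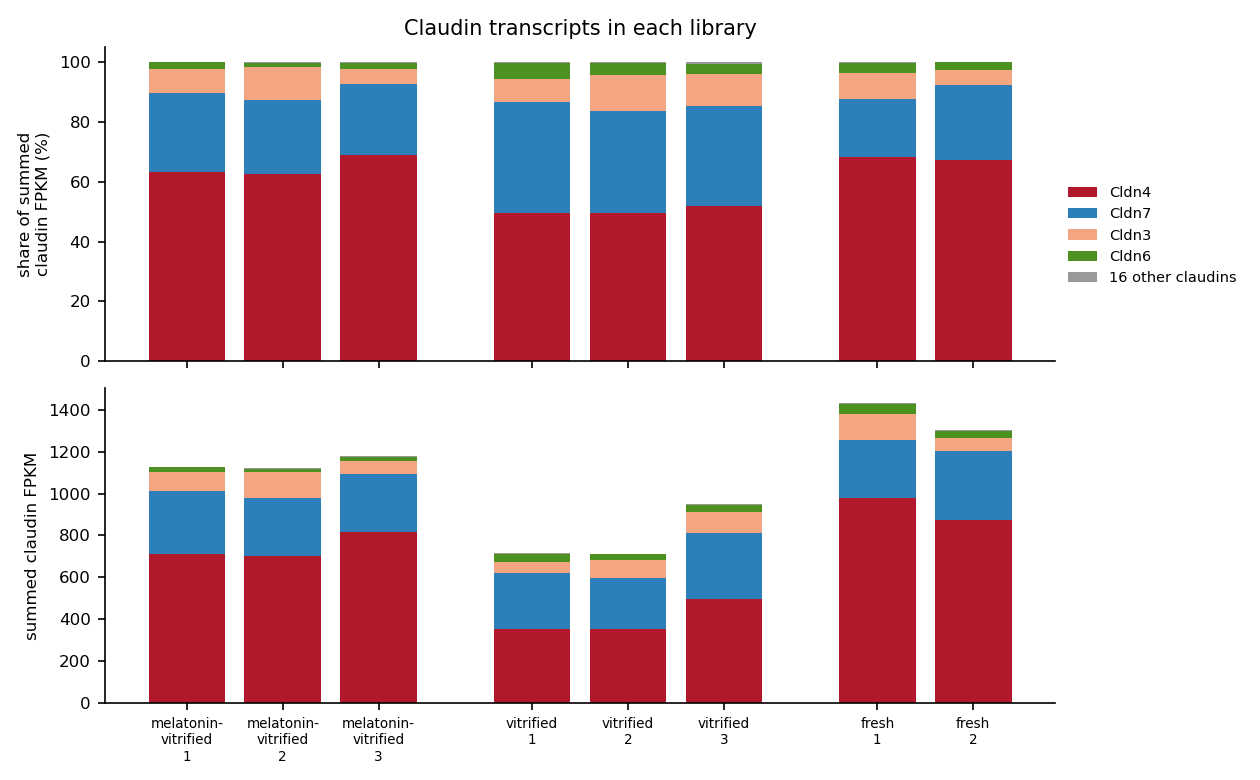
Top, the share of each claudin in the summed claudin FPKM of a library in percent; bottom, the same sum in FPKM; each bar is 1 library, and colours stand for Cldn4, Cldn7, Cldn3, Cldn6 and the 16 other claudin genes. Cldn4 takes 49.4% to 51.9% in the vitrified libraries and 62.6% or more in the others, and the Cldn7 segments are of similar height in the lower panel.

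Because the tight junctions of a blastocyst belong to the trophectoderm, Cldn4 was also set against 20 trophectoderm markers, the most abundant of which were the keratins Krt18 and Krt8. Their summed FPKM ranged over 12506 to 15106 in melatonin-vitrified libraries, 9829 to 14508 in vitrified libraries and 11081 to 11829 in fresh libraries. Of the 20, 0 were called in any comparison, beside at most 0.865% of all tested genes. Single markers still differed. For vitrified over fresh 9 of 20 were positive, with Gata3 at 0.93 ± 0.18 (limma, adjusted p = 0.0502) and Elf5 at -1.09 ± 0.23 (limma, adjusted p = 0.0578). Each library's log2(FPKM + 1) of Cldn4 minus the mean log2(FPKM + 1) of the 20 markers was 2.83, 3.24 and 3.32 in melatonin-vitrified libraries, 2.14, 2.36 and 2.57 in vitrified libraries and 3.62 and 3.47 in fresh libraries. Here too the 3 groups did not overlap. The difference was -1.19 between vitrified and fresh (exact permutation p = 0.1), 0.77 between melatonin-vitrified and vitrified (exact permutation p = 0.1) and -0.42 between melatonin-vitrified and fresh (exact permutation p = 0.2), where 0.1 is the smallest p these group sizes allow. Against Krt8, Krt18, Cdx2 and Gata3 alone, the differences were -1.56 between vitrified and fresh, 0.79 between melatonin-vitrified and vitrified and -0.77 between melatonin-vitrified and fresh (exact permutation p = 0.1 each). Of these markers Gata3 was itself higher in vitrified than in fresh libraries, which enters the first difference. For melatonin-vitrified over fresh the log2 fold changes of Krt8, Krt18, Cdx2 and Gata3 were 0.62, 0.33, 0.25 and 0.59, none called. That of Cldn4 was -0.32, so the higher marker values enter the third difference as well. Of the other lineages, 15 inner cell mass and epiblast markers included 2 genes called higher in vitrified than in fresh libraries, Nanog (log2 2.21 ± 0.33, limma adjusted p = 0.0394) and Upp1 (log2 1.31 ± 0.25, limma adjusted p = 0.0499). The median log2 fold change of the 14 tested genes of this list was 1.20 for vitrified over fresh, with 12 of 14 positive, beside 0.14 over all tested genes. Between vitrified and fresh libraries 9 of them did not overlap and were higher, and 2 did not overlap and were lower. Over all tested genes 37.0% did not overlap between these groups, 2836 higher and 1141 lower. Of the 20 trophectoderm markers 3 did not overlap and were higher, and 5 did not overlap and were lower. The summed FPKM of the 15 genes, mostly from Dppa5a with Zfp42 next, ranged over 8632 to 10753 in melatonin-vitrified libraries, 8367 to 10180 in vitrified libraries and 10789 to 11321 in fresh libraries. Among 14 primitive endoderm markers, led by Dab2 and Sparc, 0 were called, with sums of 199 to 250.02 FPKM in melatonin-vitrified libraries, 253 to 442 FPKM in vitrified libraries and 219 to 358 FPKM in fresh libraries. Of 12 cumulus cell markers 5 were in the table, led by Nr5a2 and Cyp11a1, and 0 were called, with sums of 2.503 to 4.01 FPKM in melatonin-vitrified libraries, 4.27 to 6.47 FPKM in vitrified libraries and 1.09 to 2.13 FPKM in fresh libraries. The part of these other lineages in the Cldn4 difference was not tested.

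Vitrified replicates 2 and 3 held no Y-linked transcripts (summed FPKM of 4 genes 0), while vitrified replicate 1 held 36.8 FPKM, the melatonin-vitrified libraries 28.4 to 34.5 FPKM and the fresh libraries at least 20.9 FPKM. With the presence of Y-linked transcripts as a covariate, the log2 fold change of Cldn4 for vitrified over fresh was -1.39 (limma, adjusted p = 0.136). Only the vitrified group held libraries both with and without these transcripts. Fold changes against the vitrified group with this covariate therefore rest on vitrified replicate 1 alone. Vitrified replicate 1, with Y-linked transcripts, held 353 FPKM of Cldn4, and vitrified replicates 2 and 3, without them, held 354 and 494 FPKM.

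Ocln (chr13:100496507-100552718, minus strand) encodes occludin, a membrane protein of the tight junction. It held 24.9, 20.9 and 16.5 FPKM in melatonin-vitrified libraries, 13.4, 11.9 and 17.7 FPKM in vitrified libraries and 16.5 and 19.2 FPKM in fresh libraries. The groups overlapped in all 3 comparisons. Its values for melatonin-vitrified over vitrified and vitrified over fresh missed the threshold, with a log2 fold change of 0.50 ± 0.20 for melatonin-vitrified over vitrified (limma, adjusted p = 0.298) and -0.31 ± 0.23 for vitrified over fresh (limma, adjusted p = 0.475).

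Marveld2 (chr13:100595957-100616971, minus strand) encodes tricellulin, an occludin relative placed at tricellular contacts. It held 12.8, 8.26 and 13.2 FPKM in melatonin-vitrified libraries, 5.50, 4.46 and 8.04 FPKM in vitrified libraries and 5.18 and 6.09 FPKM in fresh libraries. The melatonin-vitrified libraries lay above all others, by a narrow gap between melatonin-vitrified replicate 2 and vitrified replicate 3. The log2 fold change was 0.84 ± 0.24 for melatonin-vitrified over vitrified (95% interval 0.29 to 1.38, limma adjusted p = 0.198) and 0.88 ± 0.27 for melatonin-vitrified over fresh (limma, adjusted p = 0.167), neither past the test, and 0.05 ± 0.27 for vitrified over fresh (limma, adjusted p = 0.946). Marveld2 and Ocln are neighbours on chromosome 13, on the same strand and 43239 bases apart with no coding gene between them.

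F11r (chr1:171437535-171464603, plus strand) encodes JAM-A, an immunoglobulin-like adhesion protein of the junction. It held 112, 163 and 116 FPKM in melatonin-vitrified libraries, 131, 97.3 and 126.5 FPKM in vitrified libraries and 120.2 and 119.7 FPKM in fresh libraries. The groups overlapped in all 3 comparisons, and the log2 fold changes were 0.13 ± 0.18 for melatonin-vitrified over vitrified, -0.03 ± 0.20 for vitrified over fresh and 0.10 ± 0.20 for melatonin-vitrified over fresh (limma, adjusted p = 0.760, 0.949 and 0.831). The intervals of F11r reached no further than -0.48 to 0.55 in any of the 3.

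Tjp1 (chr7:65296165-65527781, minus strand) encodes ZO-1, the scaffold that binds claudin tails and actin. It had the lowest FPKM of the 9 genes in every library, with 3.10, 2.19 and 2.70 FPKM in melatonin-vitrified libraries, 2.15, 2.86 and 2.21 FPKM in vitrified libraries and 1.16 and 3.601 FPKM in fresh libraries. The fresh libraries enclosed all others. Vitrified over fresh gave a log2 fold change of 0.11 ± 0.31 (limma, adjusted p = 0.879), and it was -0.44 without fresh replicate 1 and 0.65 without fresh replicate 2. No direction can therefore be given for Tjp1 against fresh blastocysts, and melatonin-vitrified over vitrified gave 0.10 ± 0.28 (limma, adjusted p = 0.891).

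Cgn (chr3:94760069-94786492, minus strand) encodes cingulin, a coiled-coil protein of the plaque. It held 12.7, 12.4 and 15.4 FPKM in melatonin-vitrified libraries, 19.6, 12.9 and 16.1 FPKM in vitrified libraries and 3.85 and 11.9 FPKM in fresh libraries. Both vitrified groups lay above the fresh libraries, but the gap to fresh replicate 2 was small. The log2 fold change was 1.10 ± 0.36 for vitrified over fresh (limma, adjusted p = 0.134) and 0.87 ± 0.36 for melatonin-vitrified over fresh (limma, adjusted p = 0.245). Without fresh replicate 2 it was 1.81 and 1.57 and passed the test in both (limma, adjusted p = 0.0153 and 0.0231).

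Cdh1 (chr8:106603351-106670246, plus strand) encodes E-cadherin, the adhesion protein of the adherens junction. It held 103.4, 70.0 and 63.6 FPKM in melatonin-vitrified libraries, 88.8, 49.3 and 70.1 FPKM in vitrified libraries and 16.1 and 60.6 FPKM in fresh libraries. Melatonin-vitrified libraries lay above both fresh libraries, whereas vitrified replicate 2 lay below fresh replicate 2. Cdh1 did not pass the test in any comparison, with a log2 fold change of 1.08 ± 0.47 for vitrified over fresh (limma, adjusted p = 0.241), 1.27 ± 0.47 for melatonin-vitrified over fresh (limma, adjusted p = 0.212) and 0.19 ± 0.42 for melatonin-vitrified over vitrified (limma, adjusted p = 0.863). Without fresh replicate 2, which leaves fresh replicate 1 alone in its group, the first 2 were 2.01 and 2.20. Over all 18 alternatives the value ranged over 0.15 to 2.35 for vitrified over fresh. For melatonin-vitrified over fresh the range was 0.34 to 2.20.

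**Figure D3:**
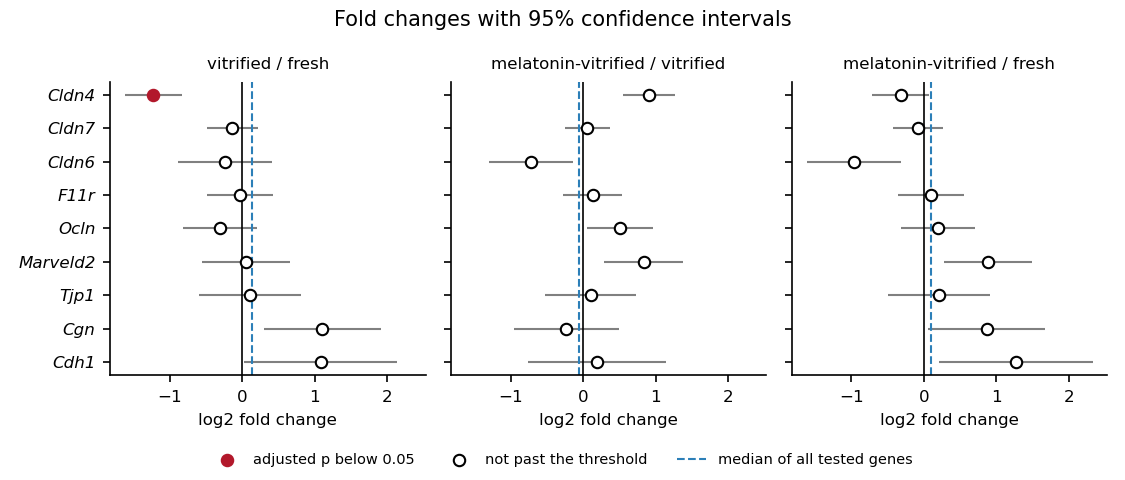
Log2 fold change of each of the 9 junction genes (x axis) in the 3 comparisons (panels), with 95% confidence intervals; filled points passed the test, open points did not, and the dashed line is the median of all tested genes. Cldn4 for vitrified over fresh, at -1.23, is the 1 filled point, and the intervals of Cgn and Cdh1 against fresh are wide.

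The values of Tjp1, Cgn and Cdh1 rest on 2 fresh libraries that differed from each other. Fresh replicate 1 stood at 0.321 of fresh replicate 2 for Tjp1, 0.324 for Cgn and 0.265 for Cdh1, against 0.851 to 1.44 for the other 6 genes. A look at transcript length, taken after these values were seen, showed that the longest transcripts of the 3 genes measure 7049, 5016 and 4430 bases. Over all tested genes, the median of fresh replicate 1 minus fresh replicate 2 on the log2(FPKM + 1) scale was 0.15 for genes whose longest transcript has up to 1000 bases, 0.06 up to 2000, -0.14 up to 4000, -0.32 up to 6000 and -0.42 above 6000. The median log2 fold change of vitrified over fresh moved the other way over the same classes, 0.01, 0.03, 0.15, 0.22 and 0.24. Ocln, at 4052 bases, differed by only -0.21 between the fresh libraries. The part of transcript length or RNA quality in the values of the 3 genes was not tested. Cldn4, with 1 annotated transcript of 1816 bases, lies in the class up to 2000 bases, with medians of 0.06 and 0.03. A class median does not give the value of a single gene. The part of transcript length or RNA quality in the Cldn4 values was not tested either.

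**Figure D4:**
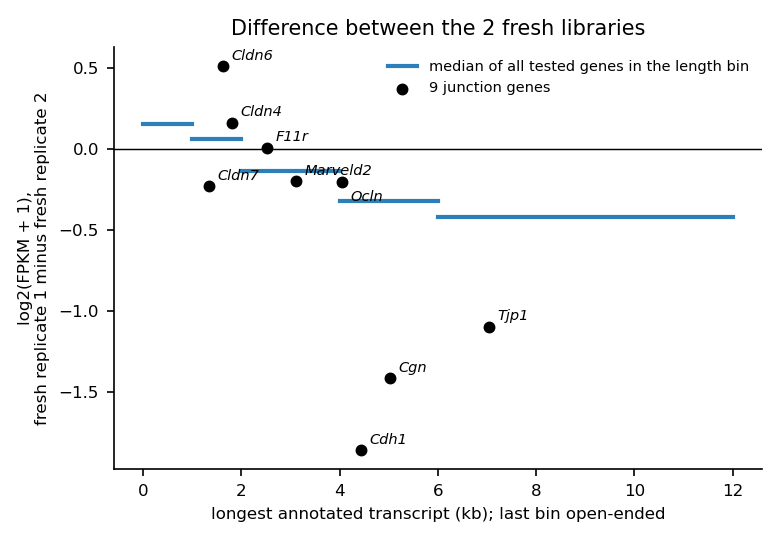
Difference between fresh replicate 1 and fresh replicate 2 on the log2(FPKM + 1) scale (y axis) against the longest annotated transcript in kb (x axis) for the 9 junction genes (points), with the median of all tested genes in 5 length classes (lines). Tjp1, Cgn and Cdh1 lie at -1.09, -1.41 and -1.85, below the medians of their classes, and the class medians pass from 0.15 for the shortest to -0.42 for the longest transcripts.

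In levels per transcript length the order of the 9 genes was similar across groups. Cldn4, Cldn7 and F11r held the top 3 ranks in every group with no overlap between neighbours, and Tjp1 ranked last, below Marveld2, in all 8 libraries. Cdh1 came next after F11r in the melatonin-vitrified and vitrified groups, whereas in the fresh group its range of 16.1 to 60.6 FPKM enclosed that of Cldn6. Ocln, Cldn6 and Cgn did not separate from their neighbours in the melatonin-vitrified group, nor did Cgn and Ocln in the vitrified group.

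Counted over the 9 genes, 2 did not overlap between vitrified and fresh libraries (Cgn above, Cldn4 below), where 37.0% of all tested genes did not. Between melatonin-vitrified and vitrified libraries 3 did not overlap (Cldn4 and Marveld2 above, Cldn6 below), where 24.7% of all tested genes did not. Between melatonin-vitrified and fresh libraries 5 did not overlap (Cgn, Cdh1 and Marveld2 above, Cldn4 and Cldn6 below), where 34.3% of all tested genes did not. With 9 genes these counts are a description only. The median log2 fold change of the 9 was -0.03 for vitrified over fresh, 0.13 for melatonin-vitrified over vitrified and 0.20 for melatonin-vitrified over fresh, beside 0.14, -0.05 and 0.09 over all tested genes. Both comparisons against fresh share the fresh libraries, and both that involve vitrified blastocysts share the vitrified libraries.

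The wider junction machinery gave 0 called genes in 5 lists in any comparison, with 67 tested members in all, where unadjusted limma p-values under 0.05 numbered 12 for vitrified over fresh, 9 for melatonin-vitrified over vitrified and 15 for melatonin-vitrified over fresh. These are 17.9%, 13.4% and 22.4% of the 67, beside 20.2%, 14.8% and 18.5% of all tested genes in the same comparisons. The largest list, 28 plaque and polarity genes of which 21 were tested, had a median log2 fold change of 0.23 for vitrified over fresh, -0.01 for melatonin-vitrified over vitrified and 0.27 for melatonin-vitrified over fresh. Its most abundant members were Cdc42, the small GTPase of polarity, and Ybx3, a ZO-1-associated Y-box protein. Cdc42 averaged 641 ± 19.9 FPKM in melatonin-vitrified libraries, 600.3 ± 24.5 FPKM in vitrified libraries (SD, n = 3 each) and 653 ± 26.4 FPKM in fresh libraries (SD, n = 2). Ybx3 held 25.8, 27.9 and 25.6 FPKM in melatonin-vitrified libraries, 102.2, 69.1 and 75.5 FPKM in vitrified libraries and 79.9 and 35.4 FPKM in fresh libraries. Melatonin-vitrified libraries lay below all others for Ybx3, with a log2 fold change over vitrified of -1.58 ± 0.27 that missed the threshold (limma, adjusted p = 0.0802).

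Of 11 other tight junction membrane genes, 8 were tested, with medians of -0.27 for vitrified over fresh, 0.10 for melatonin-vitrified over vitrified and 0.08 for melatonin-vitrified over fresh. Lsr, the angulin that places tricellulin at tricellular contacts, averaged 45.6 ± 8.59 FPKM in melatonin-vitrified libraries, 40.5 ± 14.1 FPKM in vitrified libraries (SD, n = 3 each) and 30.8 ± 1.64 FPKM in fresh libraries (SD, n = 2). Cxadr, the coxsackievirus and adenovirus receptor, an adhesion protein of the junction, averaged 20.6 ± 3.61 FPKM in melatonin-vitrified, 14.8 ± 2.23 FPKM in vitrified and 18.9 ± 7.26 FPKM in fresh libraries. Neither passed the test in any comparison. Of 25 other claudins and claudin-like genes, 16 were in the table and 5 were tested; after Cldn3, the most abundant was Cldnd1, a claudin-domain protein, at 12.2 ± 2.45 FPKM in melatonin-vitrified libraries, 11.2 ± 1.76 FPKM in vitrified libraries and 11.2 ± 0.484 FPKM in fresh libraries.

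Among 19 adherens junction partners, 12 were tested, and their medians were 0.28 for vitrified over fresh, 0.11 for melatonin-vitrified over vitrified and 0.40 for melatonin-vitrified over fresh. Epcam, an epithelial adhesion protein that binds claudin-7, averaged 1108 ± 159 FPKM in melatonin-vitrified libraries, 939.7 ± 97.2 FPKM in vitrified libraries (SD, n = 3 each) and 854 ± 235 FPKM in fresh libraries (SD, n = 2). Ctnna1, the alpha-catenin that links cadherin to actin, averaged 176 ± 32.1 FPKM in melatonin-vitrified, 162 ± 38.7 FPKM in vitrified and 104 ± 28.5 FPKM in fresh libraries. Neither passed the test in any comparison. Of 26 junction regulators, 21 were tested, with medians of 0.14 for vitrified over fresh, -0.12 for melatonin-vitrified over vitrified and 0.25 for melatonin-vitrified over fresh. The most abundant were Spint2, an inhibitor of membrane serine proteases, at 327 ± 14.8 FPKM in melatonin-vitrified libraries, 359 ± 60.02 FPKM in vitrified libraries and 371 ± 65.0 FPKM in fresh libraries, and Elf3, an epithelial transcription factor, at 269 ± 64.8 FPKM in melatonin-vitrified, 319 ± 58.6 FPKM in vitrified and 236 ± 0.619 FPKM in fresh libraries. Neither passed the test in any comparison.

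**Figure D5:**
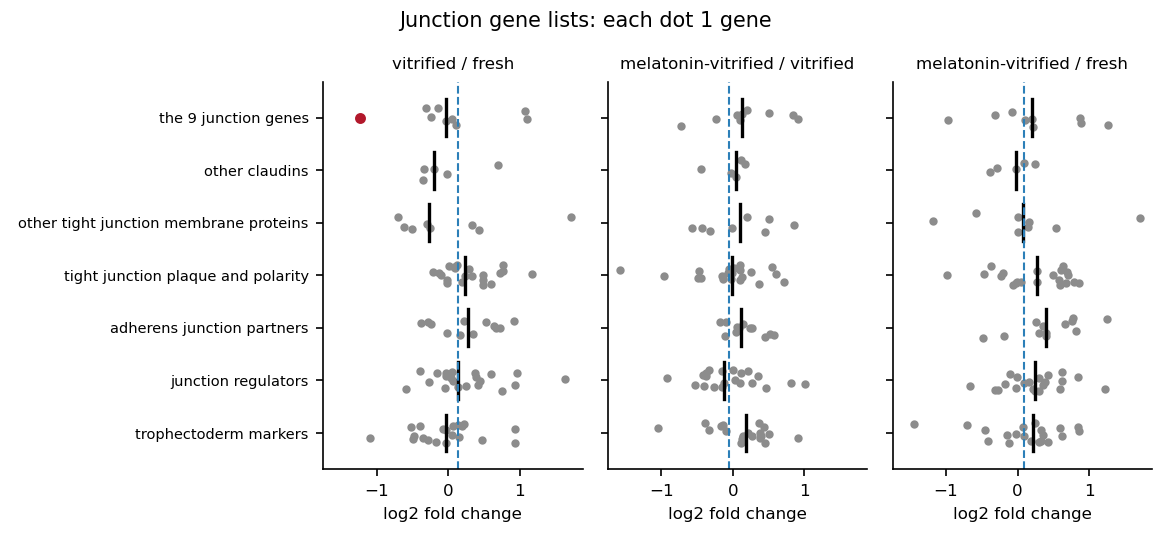
Log2 fold change (x axis) of every tested gene of the 9 junction genes, 5 further junction lists and the trophectoderm markers (rows) in the 3 comparisons (panels); each dot is 1 gene, the black bar is the list's median and the dashed line the median of all tested genes. The 1 filled red dot is Cldn4 for vitrified over fresh, and the list medians lie between -0.27 and 0.40.

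Genes whose profile over the 8 libraries was most like that of a member were found by the mean absolute difference of centred log2(FPKM + 1) values, among genes that averaged at least 5 FPKM. For Cldn4 these were Tmem109 (0.166), Tk2 (0.168), Rabgef1 (0.194), Gm28959 (0.204) and Slc25a43 (0.209), against a median of 0.531 over 5720 candidates. Tmem109, a membrane protein, held 24.7, 23.7 and 24.3 FPKM in melatonin-vitrified libraries, 15.9, 13.1 and 15.7 FPKM in vitrified libraries and 33.7 and 22.6 FPKM in fresh libraries. For Tjp1 they were Hnrnph1 (0.0764), Ctnnb1 (0.0906), Trim28 (0.0919), Krr1 (0.0930) and Rdx (0.0935), against a median of 0.320 over 5721 candidates. Ctnnb1, the beta-catenin bound to E-cadherin tails, held 24.3, 15.4 and 18.9 FPKM in melatonin-vitrified libraries, 15.2, 16.7 and 15.6 FPKM in vitrified libraries and 11.2 and 22.4 FPKM in fresh libraries, with fresh replicate 1 lowest as for Tjp1.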

How the data were processed

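RNA sequencing of mouse blastocysts was analysed from the authors' deposited table of FPKM, computed per library on mm10 per the submitters' processing notes. An aligner, annotation, strand setting or filter was not given in the sources used here, and the series text and the sample protocol name different library methods. Identifiers were matched to GENCODE release M21 (GRCm38), which held 19577 of 19688 genes. Fragments per library were estimated from 1500 low values each, 92.3% to 97.1% of them whole within 0.1.

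Genes with at least 1 FPKM in at least 2 libraries were tested with limma 3.58.1 (R 4.3.3) on log2(FPKM + 1), a pseudocount of 1, with all 8 libraries in a joint model and eBayes with a variance trend, and p-values were adjusted over 10755 genes. Other values were computed with Python 3.11.15 (pandas 2.3.3, numpy 2.4.6, scipy 1.17.1, matplotlib 3.10.9). The model was also run on simulated libraries with independent noise of equal spread in every group. Those libraries do not copy the difference between the fresh libraries, and no result given here rests on that run. The genes and lists were chosen with earlier results of these data known. From each list, genes called in any comparison and the 2 with the highest mean FPKM are named. The defining markers, Elf5, Inha and Star are named outside that rule. Cldn9, the Cldn4 to Cldn7 ratio, the motifs and the length classes were added after values were seen. Alternatives were a pseudocount of 0.1, quantile normalization, median ratio scaling, a minimum mean of 5 FPKM, no filter, no trend, a fit to the compared pair of groups, the biosample or title number as replicate block, Y-linked transcripts as a covariate, and each library left out in turn.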

Additional observations from a re-analysis of the deposited data

How the results depend on the processing

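Under up to 18 alternatives the 27 fold changes had 483 values. Of these, 438 kept their direction and side of the threshold, 27 reversed, 12 fell short of the threshold and 6 newly passed it. All 12 that fell short were values of Cldn4 for vitrified over fresh, the 1 called result. It stayed called in 6 of its 18 alternatives. Tjp1 had no value where a mean of at least 5 FPKM was required. For vitrified over fresh, 0 of the 9 genes were called with no filter, median ratio scaling, quantile normalization, only the 2 groups compared, the biosample number as replicate block or the Y-linked covariate, and 0 to 3 when 1 library was left out (3 without fresh replicate 2). For melatonin-vitrified over fresh, 1 was called with the title number as replicate block (Cdh1, log2 2.11, limma adjusted p = 0.0468). Over all 10755 tested genes that block called 22 higher and 22 lower, against 0 in the main fit. Under the other alternatives 0 of the 9 were called, except without fresh replicate 2, which leaves fresh replicate 1 alone in its group. For vitrified over fresh the title block called Cdh1 (2.35, limma adjusted p = 0.0439) and lost Cldn4 (-1.40, limma adjusted p = 0.0612). Over all tested genes it called 20 higher and 19 lower. Fresh replicate 2 stood alone in its title block in both comparisons. With the biosample number as replicate block Cldn4 gave -1.34 (limma adjusted p = 0.0981). Same-numbered libraries correlated at -0.115 to 0.121 in their deviations from the group mean. Such deviations sum to 0 within a group, and those of the fresh libraries mirror each other. These correlations therefore cannot show whether the numbers pair libraries.

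Values that reversed for vitrified over fresh were Tjp1 with median ratios (-0.0156) and quantiles (-0.143), Marveld2 with median ratios (-0.120), quantiles (-0.146), the biosample block (-0.106) and the Y-linked covariate (-0.0258), and F11r with quantiles (0.0173), the title block (0.230) and the Y-linked covariate (0.123). For melatonin-vitrified over fresh they were F11r with median ratios (-0.0242) and Cldn7 with quantiles (0.0671). For melatonin-vitrified over vitrified they were Cldn7 (-0.0575) and Cdh1 (-0.238) with the title block, and F11r (-0.0234) and Cdh1 (-0.198) with the Y-linked covariate. With that covariate the vitrified group is represented by vitrified replicate 1 alone. With 1 library left out, vitrified over fresh ranged over -0.500 to 0.00833 for Cldn6, -0.440 to 0.655 for Tjp1, -0.112 to 0.0995 for F11r and -0.152 to 0.212 for Marveld2; melatonin-vitrified over vitrified over -0.0248 to 0.165 for Cldn7, -0.0381 to 0.232 for F11r and -0.0298 to 0.388 for Cdh1; and melatonin-vitrified over fresh over -0.194 to 0.0368 for Cldn7, -0.0715 to 0.199 for F11r and -0.337 to 0.757 for Tjp1. The cause was not tested. Over all genes, calls for vitrified over fresh numbered 93, against 1 with no filter, 7 with median ratios, 3 with quantiles and 433 without fresh replicate 2.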
